A study of Homo sapiens with 4 samples.

Results

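The 10 genes described here encode the core of the machinery that cuts pre-mRNA and adds its poly(A) tail, and they were taken by symbol from the 13036 genes listed in the RNA-seq of HCCLM3 cells. They were NUDT21, CPSF6 and CPSF7 of cleavage factor I, CPSF1, CPSF2, CPSF3 and CPSF4 of the cleavage and polyadenylation specificity factor (CPSF), and CSTF1, CSTF2 and CSTF3 of the cleavage stimulation factor (CstF). All 10 were listed, with 28 of the 38510 listed transcripts. HCCLM3 is a human hepatoma cell line. In 2 samples the cells carried a control short hairpin RNA (shCtrl), and in 2 they carried one that targets KIAA1429 (shKIAA1429), so that both groups had received a hairpin. By the study's methods the hairpins were delivered by lentivirus, and the KIAA1429 hairpin was built from the sequence of 1 of its siRNAs, so an effect of that sequence on other RNAs and an effect of less KIAA1429 cannot be told apart. The series was made to look for genes downstream of KIAA1429, and the comparison asked of these factors was whether their RNA levels, or the transcripts that made up those levels, differed between the groups.

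A poly(A) site is recognized in the nascent RNA by these complexes together. CPSF reads the AAUAAA hexamer upstream of the cut and makes the cut, CstF binds a U-rich or GU-rich stretch downstream of it, and cleavage factor I binds UGUA elements further upstream and so influences which of several sites is used. KIAA1429, listed under its current symbol VIRMA, is part of the m6A (N6-methyladenosine) writer complex and is known to associate with components of cleavage factor I, which ties m6A to the choice of poly(A) site.

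At the level of whole genes, none of the 10 factors passed the test in limma, and the groups overlapped for all of them but CPSF2. In shKIAA1429, 5 stood higher and 5 lower, with log2 fold changes from -0.14 for CPSF7 to 0.29 for CSTF2. Beneath that level, the transcripts of CSTF2, which encodes the RNA-binding subunit of CstF, were divided differently. A transcript with an additional coding exon, CSTF2-203, held 35.9% and 48.2% of the gene's summed FPKM in shCtrl, and 4.02% and 1.79% in shKIAA1429. The shorter CSTF2-201 was correspondingly higher. This difference did not pass the threshold after adjustment over all transcripts or all transcript shares, and it is given below with its values and limits.

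Levels are given in FPKM, a measure of fragments that corrects for transcript length and for library size, and the FPKM of a gene's listed transcripts were added up to give the level of the gene. FPKM summed to between 370253 and 390224 per library, and since the values are normalized, read depth and the counting error it gives are unknown. The Pearson correlation of log2(FPKM + 1) over 11657 genes lay between 0.961 and 0.975 for every pair of libraries. It was highest between same-numbered libraries of different groups, at 0.9747 for replicates 1 and 0.9751 for replicates 2. Within groups it was 0.972 in shCtrl and 0.968 in shKIAA1429, and the remaining pairs between groups gave 0.970 and 0.961. No label says that the replicates were separate cultures, so p-values measure only the spread between these samples, which may be technical. Values of replicates 1 and 2 are given in that order throughout. A log2 fold change compares shKIAA1429 with shCtrl after 1 was added to each FPKM, and an adjusted p-value is corrected over all features tested. VIRMA itself reached 9.37 and 14.1 FPKM in the shCtrl libraries, against 6.90 and 8.52 FPKM with shKIAA1429. Both shKIAA1429 values were the lower ones, but the log2 fold change of -0.53 (SE 0.24) had a limma adjusted p-value of 0.917 and an exact two-sided permutation test gave p = 0.33, the smallest that 2 samples against 2 allow. In a bulk sample, fewer cells with a transcript and less of it per cell cannot be told apart. Of the liver lineage markers reported here only SERPINA1 was listed, at 3.34 to 4.42 FPKM in shCtrl and 4.70 to 5.63 FPKM in shKIAA1429, while ALB, AFP, APOA1, APOB, TTR, TF, FGB and HNF4A were not listed. Of 5 epithelial markers KRT8, KRT18 and KRT19 were listed, with a summed FPKM of 2440 to 2511 in shCtrl and 2602 to 2664 in shKIAA1429, and EPCAM and CDH1 were not. Of 7 markers of other cell types CD14 and COL1A1 were listed, together at 7.55 to 7.66 FPKM in shCtrl and 9.02 to 9.44 FPKM in shKIAA1429; PTPRC, CD3E, COL1A2, PECAM1 and VWF were not. The part of these marker levels in the results below was not tested.

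Over the 4 libraries the factors covered a wide range of levels. CPSF1 was the most abundant, with a mean of 38.6 FPKM, followed by NUDT21 at 24.3, CPSF4 at 22.7, CPSF7 at 21.8, CPSF3 at 17.4, CSTF2 at 15.4, CSTF3 at 11.6, CSTF1 at 9.85, CPSF6 at 7.64 and CPSF2 at 5.35 FPKM. In this order, the ranges over the 4 libraries were separate only between CPSF1 and NUDT21, between CPSF7 and CPSF3, and between CPSF6 and CPSF2. The ranges of all other neighbors overlapped. Within each library, however, CSTF2 stood above CSTF3. In shCtrl CSTF2 was at 12.9 and 14.6 FPKM against 9.47 and 12.6 for CSTF3, and in shKIAA1429 at 14.5 and 19.8 against 10.1 and 14.1. The remaining overlapping neighbors changed order between libraries. CPSF1 stood above 89.0% of all listed genes and CPSF2 above 44.4%. Subunits that work as partners were therefore listed at unequal FPKM. The FPKM of CPSF3 was 3.14 to 3.62 times that of CPSF2, and the FPKM of CPSF1 was 6.81 to 7.63 times that of CPSF2. FPKM depends on the length taken for each transcript, and these lengths differ widely in the annotation. CPSF2-201 has 13003 exonic bases and CPSF6-202 has 6584, against 2259 in CPSF3-201 and 4480 in CPSF1-212. The part of these lengths in the order and the ratios was not tested.

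**Figure D1:**
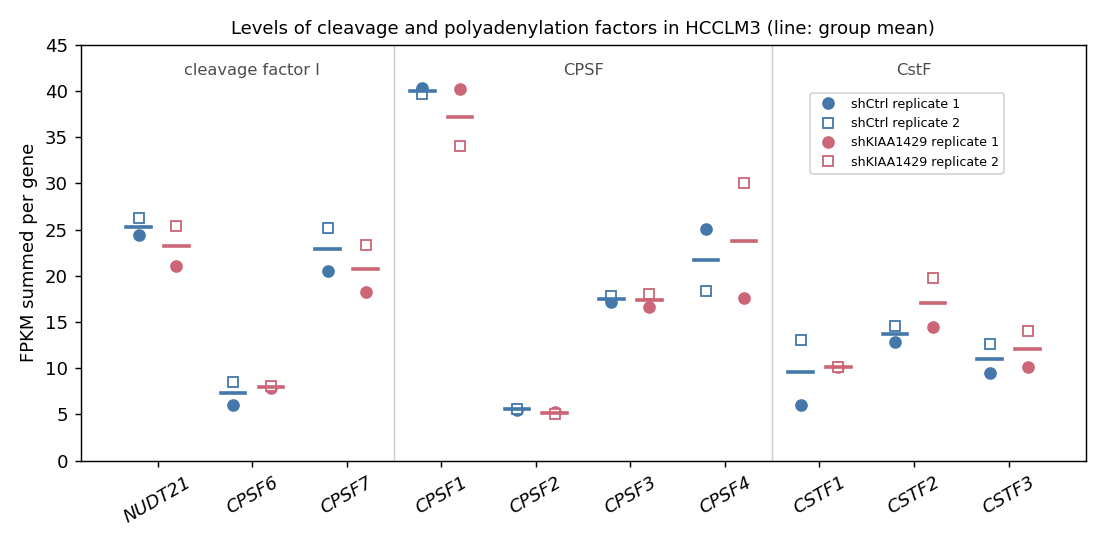
Summed FPKM per gene (linear vertical axis) of the 10 factors in each library, grouped by complex, with filled circles for replicates 1, open squares for replicates 2, and lines for group means (n = 2). CPSF1 stands highest in all libraries and CPSF2 is the 1 gene whose groups do not overlap.

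Cleavage factor I consists of NUDT21, the subunit that contacts UGUA, and of CPSF6 or CPSF7, larger subunits that pair with it. NUDT21 (ENSG00000167005.13_3, chr16:56463045-56485287 in GRCh37, minus strand) reached 24.4 and 26.3 FPKM in the shCtrl libraries, against 21.0 and 25.4 FPKM with shKIAA1429. The lowest library was shKIAA1429 replicate 1 and the groups overlapped. The means were 25.3 ± 1.32 and 23.2 ± 3.09 FPKM (SD, n = 2 each), a log2 fold change of -0.13 (95% interval -0.53 to 0.28, limma adjusted p = 0.987). For CPSF6 (ENSG00000111605.16_2, chr12:69633317-69668138, plus strand) the shCtrl libraries gave 6.08 and 8.55 FPKM and the shKIAA1429 libraries 7.82 and 8.11 FPKM. Both shKIAA1429 values lay between the shCtrl values, and the log2 fold change was 0.12 (95% interval -0.38 to 0.63, limma adjusted p = 0.987). CPSF7 (ENSG00000149532.15_4, chr11:61170203-61197486, minus strand) reached 20.5 and 25.2 FPKM in the shCtrl libraries, against 18.2 and 23.4 FPKM with shKIAA1429. In both groups replicate 2 was the higher library and the groups overlapped, with a log2 fold change of -0.14 (95% interval -0.63 to 0.36, limma adjusted p = 0.987). The ratio of CPSF6 to CPSF7, which compares the alternative partners of NUDT21, was 0.296 and 0.339 in shCtrl and 0.430 and 0.347 in shKIAA1429. The highest of these ratios was that of shKIAA1429 replicate 1, and they were not tested. Within each library, the FPKM of NUDT21 came to 0.778 to 0.916 of the summed FPKM of both partners.

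Of the CPSF subunits, CPSF1 is the large scaffold, CPSF4 is a zinc finger protein that contacts the AAUAAA hexamer, CPSF3 is the endonuclease, and CPSF2 is its catalytically inactive relative and partner. For CPSF1 (ENSG00000071894.16_3, chr8:145618444-145634733, minus strand) the shCtrl libraries gave 40.3 and 39.7 FPKM and the shKIAA1429 libraries 40.2 and 34.1 FPKM. Only shKIAA1429 replicate 2 stood apart, below the other libraries, the groups overlapped, and the log2 fold change was -0.11 (95% interval -0.48 to 0.26, limma adjusted p = 0.987). CPSF3 (ENSG00000119203.13_2, chr2:9563697-9613230, plus strand) reached 17.2 and 17.8 FPKM in the shCtrl libraries, against 16.6 and 18.1 FPKM with shKIAA1429. The shCtrl values lay between the shKIAA1429 values and the log2 fold change was -0.02 (95% interval -0.37 to 0.34, limma adjusted p = 0.999). For CPSF4 (ENSG00000160917.14_2, chr7:99036545-99054994, plus strand) the shCtrl libraries gave 25.1 and 18.3 FPKM and the shKIAA1429 libraries 17.6 and 30.02 FPKM. Its replicates were far apart in both groups, by 0.43 and 0.74 on the log2 scale, where the median gene was 0.20 and 0.21 apart. The log2 fold change of CPSF4 was 0.10 (95% interval -0.69 to 0.88, limma adjusted p = 0.999).

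CPSF2 (ENSG00000165934.12_2, chr14:92588281-92638489, plus strand) reached 5.47 and 5.64 FPKM in the shCtrl libraries, against 5.27 and 5.001 FPKM with shKIAA1429. It was the 1 factor of the 10 whose groups did not overlap, with both shKIAA1429 libraries lower. Among all genes tested, 33.6% had groups that did not overlap, 16.7% with shKIAA1429 lower, so 1 of 10 was below that background. The means of CPSF2 were 5.56 ± 0.12 and 5.14 ± 0.19 FPKM (SD, n = 2 each) and the log2 fold change was -0.10 (95% interval -0.47 to 0.28, limma adjusted p = 0.987). An exact two-sided permutation test gave p = 0.33.

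Of the CstF subunits, CSTF3 holds the complex together as a dimer, CSTF2 binds the RNA downstream of the cut, and CSTF1 joins the dimer and helps recruit the complex. For CSTF1 (ENSG00000101138.11_3, chr20:54967427-54981425, plus strand) the shCtrl libraries gave 6.03 and 13.1 FPKM and the shKIAA1429 libraries 10.2 and 10.1 FPKM. The shCtrl libraries were 1.00 apart on the log2 scale, the shKIAA1429 libraries lay between them, and the log2 fold change was 0.16 (95% interval -0.74 to 1.07, limma adjusted p = 0.999). Without shCtrl replicate 1 the log2 fold change of CSTF1 was -0.34, and without shCtrl replicate 2 it was 0.66. CSTF3 (ENSG00000176102.11_2, chr11:33106130-33183077, minus strand) reached 9.47 and 12.6 FPKM in the shCtrl libraries, against 10.1 and 14.1 FPKM with shKIAA1429. Replicate 2 was higher in both groups, the groups overlapped, and the log2 fold change was 0.12 (95% interval -0.48 to 0.71, limma adjusted p = 0.997). For CSTF2 (ENSG00000101811.13_2, chrX:100075348-100095921, plus strand) the shCtrl libraries gave 12.9 and 14.6 FPKM and the shKIAA1429 libraries 14.5 and 19.8 FPKM. The groups overlapped at the middle values, and the log2 fold change of 0.29 (95% interval -0.23 to 0.80, limma adjusted p = 0.960) was the largest of the 10. CSTF2T, an intronless paralog of CSTF2, was listed separately, and the ratio of CSTF2 to CSTF2T was 2.25 and 2.13 in shCtrl and 2.61 and 3.03 in shKIAA1429. How reads that fit both paralogs were assigned is not given in the sources used here, so this ratio is uncertain.

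Among the 10 factors, 0 passed an adjusted p-value under 0.05 with an absolute log2 fold change over 1 in limma, and 0 had an unadjusted p-value under 0.05. Over all 11657 genes tested, 0% passed both thresholds, and for 5.63% the unadjusted p-value was under 0.05. An absolute log2 fold change over 1 was reached by none of the 10 and by 1.07% of all genes. The median log2 fold change was 0.04 over the factors and -0.01 over all genes tested. For 9 of the 10 factors the 95% interval stayed within a log2 fold change of -1 to 1, and the exception was CSTF1. These intervals cover the spread between the 4 libraries and are wide enough that smaller differences in either direction were not detectable.

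The other genes of 3′ end processing were read from a list of 14 (WDR33, FIP1L1, SYMPK, CSTF2T, PCF11, CLP1, PAPOLA, PAPOLG, PABPN1, RBBP6, SSU72, PPP1CA, PPP1CB and XRN2). Of these, 6 stood higher in shKIAA1429 and 8 lower, none passed both limma thresholds, the unadjusted p-value was under 0.05 for 1, and their median log2 fold change was -0.02. That gene was PAPOLG, which encodes a nuclear poly(A) polymerase. PAPOLG reached 0.733 and 0.745 FPKM in the shCtrl libraries, against 1.92 and 2.22 FPKM with shKIAA1429. Both shKIAA1429 libraries were higher, with a log2 fold change of 0.82 (95% interval 0.40 to 1.23, unadjusted p = 0.00407, limma adjusted p = 0.510), and the gene passed the filter on low values through shKIAA1429 alone. PPP1CA, a protein phosphatase catalytic subunit found with the machinery, reached 77.9 and 89.3 FPKM in the shCtrl libraries, against 95.4 and 109.0 FPKM with shKIAA1429 (log2 fold change 0.29, limma adjusted p = 0.924). The largest difference downward was in RBBP6, a RING finger protein that activates the cleavage endonuclease. For RBBP6 the shCtrl libraries gave 6.23 and 8.32 FPKM and the shKIAA1429 libraries 4.44 and 5.30 FPKM (log2 fold change -0.49, limma adjusted p = 0.895). SSU72, a phosphatase of the RNA polymerase II tail, reached 73.5 and 82.8 FPKM in the shCtrl libraries, against 69.9 and 71.5 FPKM with shKIAA1429 (log2 fold change -0.14, limma adjusted p = 0.978).

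**Figure D2:**
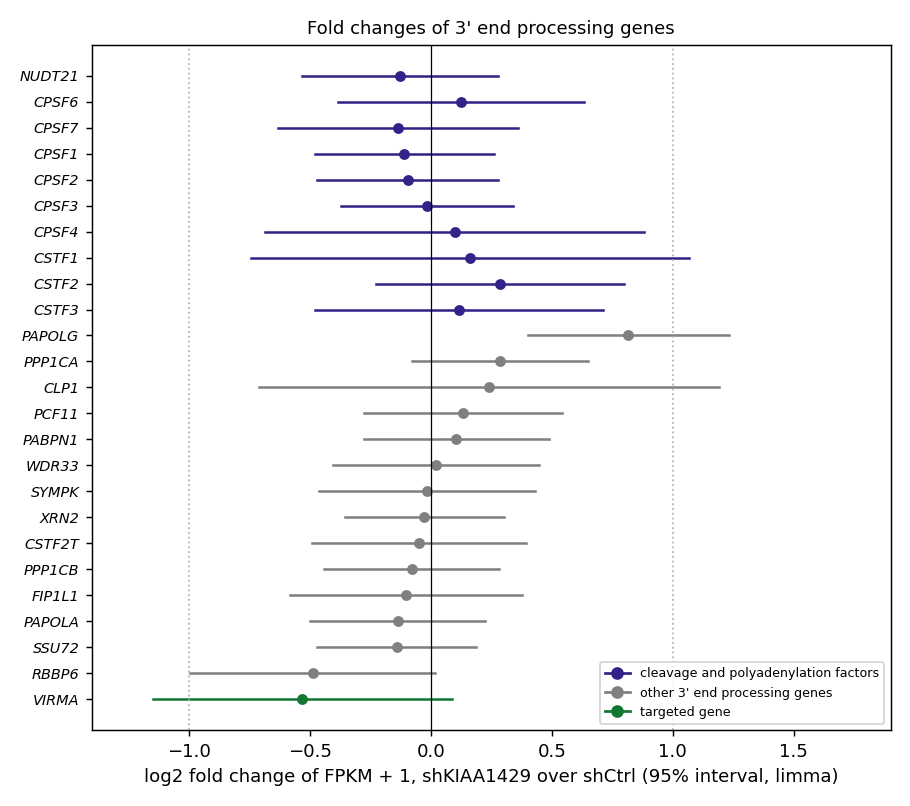
Log2 fold change of FPKM + 1, shKIAA1429 over shCtrl, for the 10 factors (dark blue), 14 other genes of 3′ end processing (grey) and VIRMA (green); points are limma estimates, bars 95% intervals (2 libraries per group), and dotted lines mark -1 and 1. All factors lie between -0.14 and 0.29 and their intervals span 0; the interval of PAPOLG, tested only because of its shKIAA1429 level, is 0.40 to 1.23.

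Subsequently, the transcripts of each factor were examined. NUDT21 and CPSF3 were each listed with 1 transcript, and the other 8 factors with 2 to 6. Of the 28 transcripts, 21 reached 1 FPKM in at least 2 samples and were tested among 24996. In limma 0 of the 21 passed both thresholds, as did 0% of all transcripts tested. An unadjusted p-value under 0.05 was found for 2 of the 21, both of CSTF2, and for 6.28% of all transcripts tested. Groups that did not overlap were seen in 2 of the 21, the same pair of CSTF2 transcripts, against 33.5% of all transcripts tested. For the share that a transcript took of its gene's summed FPKM, 26 transcripts of the factors entered among 33258. Here 0 (0% of all) passed an adjusted p-value under 0.05, 2 had an unadjusted p-value under 0.05 against 6.03% of all, and 7 had groups that did not overlap against 35.5% of all. As CSTF2 has 2 listed transcripts, its shares mirror each other and count as 1 observation.

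CSTF2-201 (ENST00000372972.6_1, chrX:100075390-100095907 in the files) has 14 exons and a reading frame of 577 codons in the GENCODE annotation. CSTF2-203 (ENST00000415585.6_1, chrX:100075348-100095921 in the files) has those 14 exons and another between them, its exon 9 of 15, with a reading frame of 597 codons. The annotated models of both start and end at other positions than those in the files. That exon lies at chrX:100085797-100085856 in GRCh37, is coding throughout, and measures 60 bases or 20 codons, so the frame continues after it. It is the only exonic sequence by which these transcripts differ in the annotation, and the borders of the exon are therefore printed, with exon bases in capitals and the flanking intron in lower case, both on the plus strand. The first is chrX:100085782-100085811 and the second chrX:100085842-100085871.
CSTF2 exon start: ttactgcttacctagGAACCCTACAGCACT
CSTF2 exon end: TTGAGCGAGTTCAAGgtacccattgtatct
The intron ends in ag before the exon and opens with gt after it, the usual borders of a spliced exon.

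CSTF2-203 reached 4.61 and 7.03 FPKM in the shCtrl libraries, against 0.581 and 0.353 FPKM with shKIAA1429. Both shKIAA1429 libraries lay under the filter of 1 FPKM, so the transcript was tested only because of its shCtrl level. Its log2 fold change was -2.20 (SE 0.28, 95% interval -2.98 to -1.41), with an unadjusted p of 0.0017 and a limma adjusted p of 0.234, at rank 180 of 24996 transcripts by p. With 0.1 in place of 1 added to each FPKM it was -3.38 (limma adjusted p = 0.299). For CSTF2-201 the shCtrl libraries gave 8.25 and 7.55 FPKM and the shKIAA1429 libraries 13.9 and 19.4 FPKM. Both shKIAA1429 libraries were above both shCtrl libraries, and the log2 fold change was 0.97 (SE 0.23, 95% interval 0.33 to 1.61), with an unadjusted p of 0.0143 and a limma adjusted p of 0.526. The sum of the pair overlapped between the groups, as given above for the gene.

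As a share of the gene, CSTF2-203 came to 42.0% ± 8.74 in shCtrl and 2.90% ± 1.58 in shKIAA1429 (SD, n = 2 each). The means differed by -39.1 percentage points, and 1.64% of all transcript shares differed by at least as much in either direction. In the limma fit of the arcsine of the square root of the share, the difference was -0.54 (SE 0.07, unadjusted p = 0.00307, adjusted p = 0.240). An exact two-sided permutation test of the share gave p = 0.33. With any 1 of the 4 libraries left out, the difference was -0.60 to -0.47 on the arcsine scale. As the groups did not overlap, leaving out 1 library could not reverse the direction. FPKM of transcripts that share most of their sequence rest on the few reads that tell them apart. In the annotation, 2570 of the exonic bases are common to both transcripts and 60 belong to CSTF2-203 alone. Part of the common bases lie beyond the 3′ ends in the files. The start and end positions in the files also differ between the pair, the tool that divided reads between transcripts is not given in the sources used here, and reads across the exon were not analysed here.

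**Figure D3:**
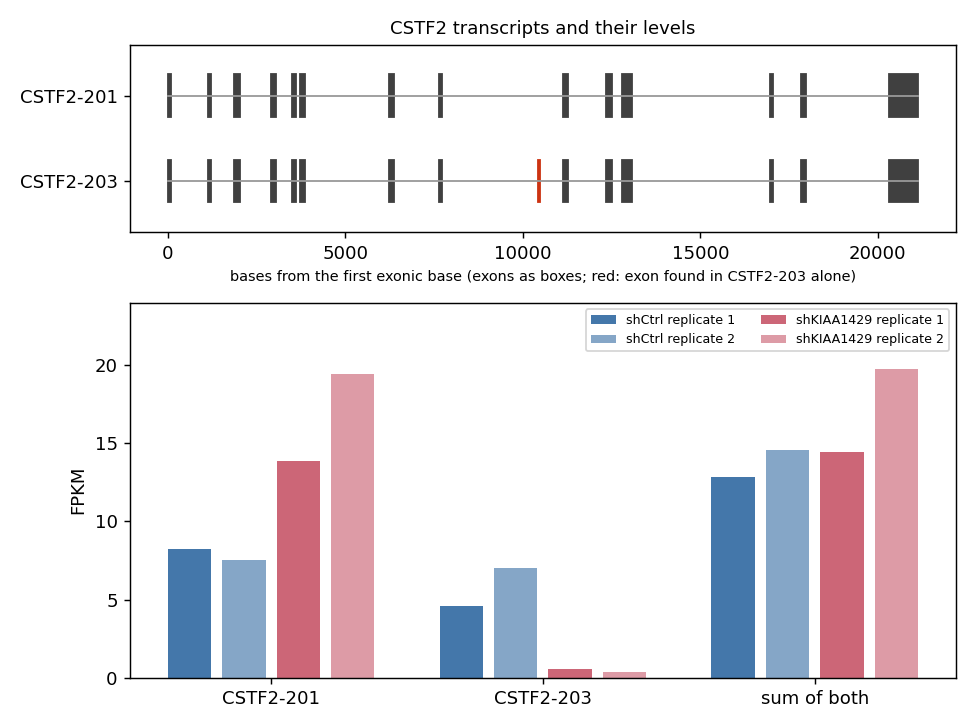
Upper panel, annotated exons of the CSTF2 transcripts as boxes to scale, in bases from the first exonic base, with the exon found in CSTF2-203 alone in red. Lower panel, FPKM of each transcript and of their sum in each library (bars from 0); CSTF2-203 stands at 4.61 and 7.03 in shCtrl and at 0.581 and 0.353 in shKIAA1429, while the sums overlap.

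CSTF3, the scaffold of CstF, was listed with short transcripts that end inside the gene. An early poly(A) site in an intron of CSTF3 is known, at which the machinery limits its own supply. CSTF3-201, the transcript of 21 exons and 717 codons, reached 3.80 and 4.82 FPKM in the shCtrl libraries, against 4.71 and 5.03 FPKM with shKIAA1429. CSTF3-202 and CSTF3-203 end in its intron 3, at 202 and 701 bases after exon 3, with reading frames of 44 and 103 codons. In the annotation CSTF3-202 also retains intron 2, as its last exon runs unbroken from the start of exon 2. CSTF3-202 reached 3.14 and 3.35 FPKM in the shCtrl libraries, against 2.43 and 3.27 FPKM with shKIAA1429. For CSTF3-203 the shCtrl libraries gave 1.56 and 3.73 FPKM and the shKIAA1429 libraries 2.53 and 4.70 FPKM. Together the transcripts ending in intron 3 held 49.7% and 56.2% of the FPKM of CSTF3 in shCtrl and 49.1% and 56.6% in shKIAA1429. The means were 53.0% ± 4.63 and 52.9% ± 5.34 (SD, n = 2 each), and the replicates of a group were several points apart. The share of CSTF3-202 alone was 33.2% and 26.6% in shCtrl and 24.04% and 23.2% in shKIAA1429, so that both shKIAA1429 shares were lower (limma adjusted p = 0.882). The share of CSTF3-203 was 16.5% and 29.6% in shCtrl and 25.04% and 33.4% in shKIAA1429, and the groups overlapped. The limma log2 fold changes were 0.15 for CSTF3-201, -0.15 for CSTF3-202 and 0.37 for CSTF3-203, with SE of 0.20, 0.22 and 0.45 and adjusted p-values from 0.993 to 0.9999.

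In CSTF1 the composition varied widely between replicates of the same group. CSTF1-201, with 431 codons, reached 4.76 and 5.57 FPKM in the shCtrl libraries, against 3.39 and 5.81 FPKM with shKIAA1429. CSTF1-202 reached 0.612 and 3.35 FPKM in the shCtrl libraries, against 6.45 and 2.11 FPKM with shKIAA1429. For CSTF1-204 the shCtrl libraries gave 0.651 and 4.16 FPKM and the shKIAA1429 libraries 0.339 and 2.18 FPKM. The groups overlapped for all 3 transcripts. CSTF1-202 and CSTF1-204 are annotated with an incomplete 3′ end at the same position, 7012 bases upstream of the end of CSTF1-201, and so mark no poly(A) site. Their joint share of CSTF1 was 21.0% and 57.4% in shCtrl and 66.7% and 42.5% in shKIAA1429. The spread of the gene's level between shCtrl replicates lay in these partial models, since CSTF1-201 alone differed little between them.

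Among transcripts of cleavage factor I, a shorter 3′ end was listed for each of the larger subunits. CPSF6-202, of 10 exons and 551 codons, made up most of the gene, with 5.86 and 7.42 FPKM in the shCtrl libraries against 7.57 and 7.39 FPKM with shKIAA1429. CPSF6-201, of 11 exons and 588 codons, differs by its exons as well as by an end 4419 bases further upstream. It held 3.58% and 13.2% of the gene in shCtrl and 3.19% and 8.87% in shKIAA1429. In both groups replicate 2 had the larger share, and the groups overlapped. CPSF7-205 reached 13.7 and 16.8 FPKM in the shCtrl libraries, against 16.5 and 15.7 FPKM with shKIAA1429. CPSF7-206, which ends 1688 bases further upstream and also has 462 codons, reached 5.48 and 7.11 FPKM in the shCtrl libraries, against 0.237 and 6.24 FPKM with shKIAA1429. A single library, shKIAA1429 replicate 1, stood apart in CPSF7-206. The log2 fold change of CPSF7-206 was -1.28 (SE 0.95, limma adjusted p = 0.973) with all 4 libraries and -0.00126 without that library.

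In CPSF, CPSF1-212, with 38 exons and 1443 codons, made up most of CPSF1, at 36.6 and 33.1 FPKM in the shCtrl libraries and 33.2 and 30.7 FPKM with shKIAA1429. For CPSF2-201 the shCtrl libraries gave 4.64 and 4.30 FPKM and the shKIAA1429 libraries 4.29 and 4.35 FPKM. The groups of CPSF2-201 overlapped, unlike those of the gene. CPSF2-202, a partial model with an incomplete 3′ end, reached 0.830 and 1.34 FPKM in the shCtrl libraries, against 0.979 and 0.655 FPKM with shKIAA1429. CPSF4 was divided among 6 transcripts, of which CPSF4-204 and CPSF4-201 held the most. CPSF4-204 reached 16.4 and 3.58 FPKM in the shCtrl libraries, against 7.10 and 21.0 FPKM with shKIAA1429, so that the spread between replicates of CPSF4 lay in this transcript. For CPSF4-201 the shCtrl libraries gave 6.07 and 9.26 FPKM and the shKIAA1429 libraries 6.40 and 6.02 FPKM. The limma log2 fold changes were 0.58 (SE 0.89) for CPSF4-204 and -0.24 (SE 0.25) for CPSF4-201, neither with an unadjusted p-value under 0.05.

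**Figure D4:**
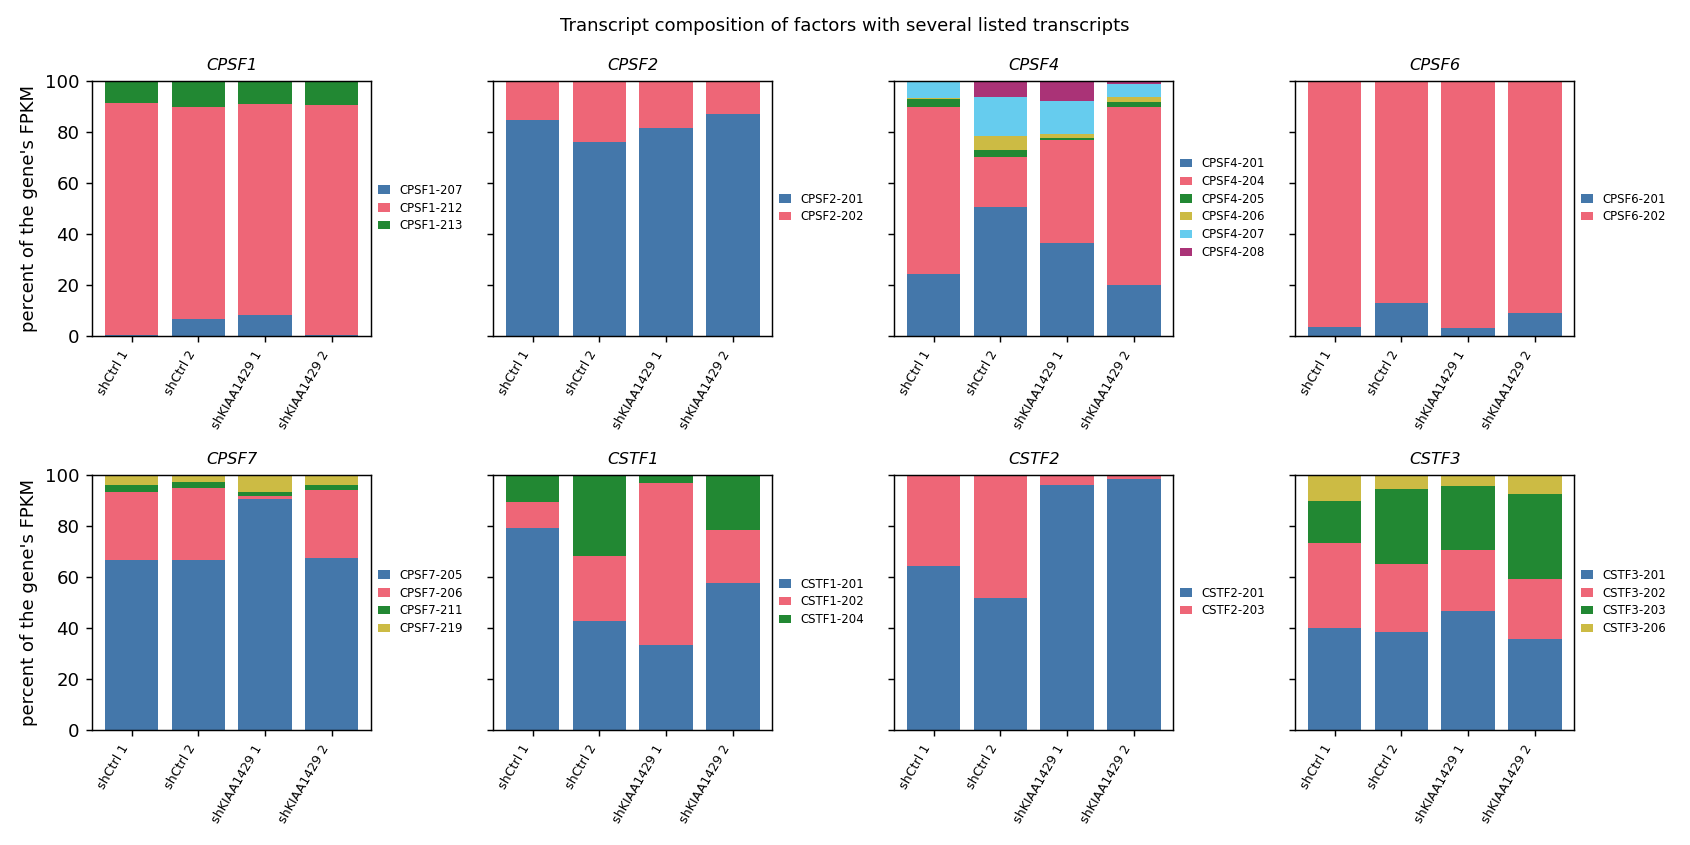
Share of each gene's summed FPKM (vertical axis, percent, from 0 to 100) held by each listed transcript in each library, for the 8 factors with several listed transcripts. In CSTF2 the share of CSTF2-203 is 35.9% and 48.2% in shCtrl and 4.02% and 1.79% in shKIAA1429; in CPSF4 and CSTF1 replicates of 1 group differ widely, and in CPSF7 shKIAA1429 replicate 1 stands apart.

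Finally, since these proteins act at poly(A) sites, the ends of their own transcripts were read in the GRCh37 genome. The hexamers AATAAA and ATTAAA, the DNA letters of the main poly(A) signal and its most common variant, were searched on the transcript's strand in the last 40 bases before the end given in the files. Of the 28 transcripts, 21 have a complete 3′ end in the annotation, and 12 of these (57.1%) held a hexamer, where 55.1% of all 33016 listed transcripts with a complete end did. Completeness was read in GENCODE 44, while the ends searched were those in the files. Start and end were the same in both for 57.1% of the 28 and for 66.8% of all matched transcripts. CSTF3-206, for example, counted as complete, but its end in the files lies 21295 bases upstream of that of CSTF3-201. The shares with a hexamer therefore rest on both sources. AATAAA was held by 10 of the 21 (47.6%, against 44.1% of all) and ATTAAA by 2 (9.52%, against 13.2% of all). None of the 7 transcripts with an incomplete end held either, against 2.82% of such transcripts overall. CSTF3-202 and CSTF3-203 held neither in this window, nor did CPSF7-206 and CPSF4-204. The signals of NUDT21, CPSF4 and CSTF2, for a view of each complex, and of both ends of CPSF6 are printed with the hexamer in capitals, 5′ to 3′ on the strand of the gene. They lie at chr16:56463050-56463079 on the minus strand for NUDT21, chr12:69663689-69663718 and chr12:69668104-69668133 on the plus strand for CPSF6-201 and CPSF6-202, chr7:99054966-99054995 on the plus strand for CPSF4-201, and chrX:100095878-100095907 on the plus strand for CSTF2.
NUDT21-201: tattgtcatttcAATAAAaaatatttgaaa
CPSF6-201: atgtagtgttgtAATAAActgtttaatggg
CPSF6-202: tcttgtattgaaAATAAAacaaacttttga
CPSF4-201: tttatgaaatggATTAAAgcttgtttttta
CSTF2-201 and CSTF2-203: tctgtgacttgaAATAAActttgaacacaa
Between the hexamer and the listed end lay 17 bases in NUDT21-201, 13 in CPSF6-201, 17 in CPSF6-202, 11 in CPSF4-201, and 12 and 26 in CSTF2-201 and CSTF2-203. At the ends in the files, both CSTF2 transcripts thus end behind the same hexamer. In the annotation both share a last exon that runs past these ends, so there the hexamer lies inside it. The pair therefore differs by the additional exon and is not separated by this hexamer. A match to these letters is a description of the sequence and no measure of use of the site.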

How the data were processed

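RNA of HCCLM3 cells, 2 shCtrl and 2 shKIAA1429 samples grouped by their titles, was analysed from transcript values. Per the file headers, the deposited values are FPKM, 1 per transcript and sample. Per the labels' processing notes, Bowtie2 2.1.0 and hg19 were used. The tool that computed FPKM is not given in the sources used here. By their methods the authors counted reads per gene and compared them with DESeq, but counts were not used here. A transcript is listed only where it reached about 0.504 FPKM in at least 1 sample. A few abundant RNAs can shift all FPKM of a library.

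The 10 genes, the list of 14 others and the markers were chosen with earlier results of these data known. A further liver lineage marker is not reported here. FPKM were summed per gene. Genes or transcripts that reached 1 FPKM in at least 2 samples were tested as log2(FPKM + 1). This makes changes of low values look smaller. The test was that of limma 3.58.1 under R 4.3.3 (eBayes with trend, two-sided, group only), with Benjamini-Hochberg adjustment over all features tested. A call needed an adjusted p under 0.05 and a log2 fold change beyond 1 in either direction. Shares were fitted after an arcsine square root transformation, over genes with at least 2 transcripts and 1 FPKM in every sample. The fits were tested on simulated data. Transcript names, exons and codons come from GENCODE 44 lifted to GRCh37, which matched 97.2% of listed transcripts and all 28 transcripts of these genes, with the same start and end for 57.1% of the 28. How strand and reads with several matches were handled is not given in the sources used here, so overlapping genes and paralogs are uncertain.

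Named were all 10 genes, VIRMA, their transcripts with at least 10% of the gene's FPKM over the 4 samples or an unadjusted p under 0.05, and the 2 largest rises and 2 largest falls of the other list. Further transcripts and ratios were chosen after their values were seen. Alternatives were upper quartile scaling, other filters, a pseudocount of 0.1, robust variance, protein-coding transcripts only, a replicate block, leaving out each library, single thresholds for genes, and for shares a logit scale and a minimum gene FPKM of 5. For transcripts and shares, leaving out libraries, and for transcripts the robust variance and the stricter filter, were added after the data were seen, as were counts of calls from protein-coding transcripts. Python 3.11.15 and matplotlib 3.10.9 drew the figures.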

Additional observations from a re-analysis of the deposited data

How the results depend on the processing

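With 2 libraries per group, the factors' fold changes could change sign when 1 library was left out. The lowest and highest log2 fold changes over the 4 fits without 1 library were -0.26 to 0.00473 for NUDT21 and NUDT21-201, -0.23 to 0.00862 for CPSF1, -0.0745 to 0.0431 for CPSF3 and CPSF3-201, -0.27 to 0.47 for CPSF4, -0.0911 to 0.34 for CPSF6, -0.31 to 0.0369 for CPSF7, -0.34 to 0.66 for CSTF1 and -0.10 to 0.34 for CSTF3. For transcripts they were -0.0845 to 0.00520 for CPSF2-201, -0.51 to 0.0273 for CPSF4-201, -0.38 to 1.54 for CPSF4-204, -0.0554 to 0.22 for CPSF7-205, -0.49 to 0.15 for CSTF1-201, -1.32 to 0.32 for CSTF1-204, -0.31 to 0.00912 for CSTF3-202 and -0.0755 to 0.81 for CSTF3-203. The cause was not tested. In each of these fits the lone library of a group was assumed to vary like the other group. CPSF2 (-0.13 to -0.06) and VIRMA (-0.80 to -0.26), whose groups did not overlap, could not change sign when 1 library was left out. CSTF2 (0.07 to 0.50) kept its direction in these fits. Outside them, none of these fold changes changed sign under any alternative run. Genes past both thresholds were 0, and 0 to 1 over the fits without 1 library (1 without shCtrl replicate 1), while 125 genes passed the fold change threshold alone, with no test. None of the 10 factors passed under any alternative run. No transcript or share, over all tested, passed under the alternatives run for them, which did not include single thresholds.

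CSTF2-201 was at 0.74 to 1.20 without each library, with limma adjusted p-values from 0.525 to 0.762 over its other alternatives. For CSTF2-201, CSTF2-203 and their shares the groups did not overlap, so leaving out 1 library could not reverse the direction. CSTF2-203 was at -2.46 to -1.94 without each library and at -3.38 with a pseudocount of 0.1, with adjusted p-values from 0.227 to 0.653 over all its alternatives; it could not be fitted where every sample had to reach 1 FPKM. Its share differed by -0.60 to -0.47 without each library and by -2.95 on the logit scale, with adjusted p-values from 0.210 to 0.709 over all its alternatives, the replicate block included. Adding the replicate number as a block left 0 genes called, while 1269 had an unadjusted p-value under 0.05, against 656 without the block. In the blocked fits the adjusted p was 0.420 for VIRMA, 0.689 for CSTF2-201, 0.574 for CSTF2-203 and 0.709 for its share. Deviations of same-numbered samples correlated at 0.32, but with 2 pairs and no label that a number marks a batch, the numbers were not taken as pairs. Read depth is unknown, so what it limits could not be given.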
